A study of Phelipanche ramosa with 8 samples.

Results

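The genes described here are 6 contigs of the root parasite *Phelipanche ramosa* that stand at the turnover, perception and early response of cytokinin (CK). They are 3 contigs annotated as cytokinin oxidases, namely *PrCKX4* (Pram_42581), *PrCKX2* (Pram_42809) and a *CKX1* contig (Pram_32365), the response regulator *PrRR5* (Pram_16837), the zinc finger gene *PrZFP6* (Pram_43760) and the homolog of the CK receptor *CRE1/AHK4* (Pram_00096). They were taken by contig identifier from the 52543 contigs with a sense probe on the array, together with the 6 probes designed against the opposite strand of the same contigs. The receptor homolog was described for detection only. *PrCKX4*, *PrCKX2*, *PrRR5* and *PrZFP6* were picked by the study as CK markers that changed on its arrays, so that their direction here is not independent evidence. The *CKX1* contig is on the study's list of hormone-related contigs, drawn from genes that changed on its 12 h or 24 h arrays. Its ratio at 12 h is therefore not that of an unselected gene.

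*P. ramosa* is a holoparasite whose radicle must form an attachment organ, the haustorium, to reach a host root. Wild-type *P. ramosa* seeds were conditioned for 7 days at 21 °C in the dark and germinated for 4 days with 1e-07 M *rac*-GR24, a synthetic strigolactone that triggers germination, in both groups. Exudate samples were then treated for 12 h with root exudates of the host *Brassica napus*, and control samples were kept for 12 h in medium without exudates. Each of 4 arrays on 1 slide held 1 exudate and 1 control sample, with the exudate sample in Cy3 on arrays 1 and 2 and in Cy5 on arrays 3 and 4. The labels name 4 independent replicates per group, whereas the methods of the study give a pair of biological replicates in a dye-switch design, so that p-values may partly measure technical spread. The labels' protocol gives diluted exudates and the methods give crude ones. RNA came from whole germinated seeds, in which fewer cells of a type and less RNA per cell cannot be told apart. Arrays of 24 h are not analysed here.

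In plants, CK binds histidine kinase receptors such as CRE1/AHK4 of Arabidopsis, and a phosphorelay carries the signal to response regulators in the nucleus. Type-A response regulators such as Arabidopsis ARR5 are induced early by CK and damp the same pathway. Cytokinin oxidases/dehydrogenases cleave the side chain of CK, which inactivates the hormone irreversibly, and several of their genes are themselves induced by CK.

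A probe counted as well above background where the scanner software marked at least 50% of its spots so. Array 3 had the dimmest exudate channel. There 44.1% of sense probes stood well above background, against between 65.1% and 73.5% in the other exudate channels and between 67.8% and 76.9% in the control channels. Median background intensity went with the dye, between 49 and 51 in Cy3 channels and between 148 and 157 in Cy5 channels of either group. At most 0.272% of the spots of a channel were saturated, none of them a spot of the 6 contigs. As a check of the tissue, 6 contigs annotated as seed storage proteins (4 *CRA1* and 2 *PAP85*) were examined, of which 5 were well above background on all 4 exudate arrays and 6 on all 4 control arrays. The exception was *PAP85* Pram_01577, detected on 3 of 4 exudate arrays. Both *PAP85* contigs are on the study's list too and had lower signal with exudate (mean log2 ratios of -1.43 and -1.17). Their detection therefore checks for seed tissue, and not for likeness of the groups. No sequence of the probes or contigs was used here.

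The 12 h comparison asks which of these genes differ in germinated seeds after 12 h with host exudates. Transcript signals of *PrCKX4*, *PrCKX2*, *PrZFP6* and *PrRR5* were 3.55-fold, 2.76-fold, 2.19-fold and 2.03-fold higher in exudate samples than in control samples. The *CKX1* contig did not pass the test, with a ratio of 0.931, and the receptor homolog was not well above background in any sample. Of the 5 sense probes with a ratio, 4 were therefore called higher and 0 lower, where 4.5% of the 33912 sense probes tested were called higher and 11.2% lower (15.7% in either direction). A call required an adjusted p below 0.05 and a fold of at least 1.5 or at most 0.75. A legend of the study places the same upper limit on the log2 scale, and at a log2 ratio of 1.5 *PrCKX4* alone of the 4 would pass. The same 4 probes had ratios above 1 on all 4 arrays, as did 10.5% of the tested sense probes.

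Among the oxidases, *PrCKX4* gave the largest ratio. Its log2 signal, the intensity of a single channel after normalization within and between arrays, was 10.60, 10.50, 9.44 and 10.55 in exudate samples 1 to 4, against 8.39, 8.74, 8.34 and 8.30 in control samples 1 to 4. Exudate sample 3 stood apart from the other exudate samples, which lay between 10.50 and 10.60, and it was still above every control sample. Every exudate signal lying above every control signal was found for 4.43% of the tested sense probes. The log2 ratio within the array was 2.20, 1.76, 1.10 and 2.25, with a mean of 1.83 ± 0.54 (SD, n = 4 arrays) and a standard error of 0.22. The limma test with Benjamini-Hochberg adjustment over all tested sense probes gave an adjusted p of 0.00201, and *PrCKX4* ranked 137th from the top by ratio among 33912 probes. The probe was well above background in all 8 samples. Its raw intensity over the local background was 28.5 and 38.6 in exudate samples 1 and 2, and 2.51 and 9.01 in exudate samples 3 and 4. In control samples 1 to 4 it was 3.11, 3.83, 7.45 and 9.67. The raw margin was thus smallest in exudate sample 3, the dim channel named above. Exudate samples 1 and 2 and control samples 3 and 4 were in Cy3, where background was lower, so that these margins compare only within a dye.

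*PrCKX2*, the second oxidase, varied more between arrays. In exudate samples its log2 signal was 9.71, 10.08, 8.95 and 10.26, against 8.32, 8.36, 8.37 and 8.08 in control samples. The control samples were tightly grouped (8.29 ± 0.14, SD, n = 4), the exudate samples were spread (9.75 ± 0.58, SD, n = 4), and the groups did not overlap. The log2 ratio was 1.39, 1.72, 0.58 and 2.17, with a mean of 1.47 ± 0.67 (SD, n = 4 arrays), a standard error of 0.24 and an adjusted p of 0.00862 in limma. It ranked 252nd of the tested sense probes, inside the top 0.743%, and was well above background in all 8 samples.

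The *CKX1* contig behaved otherwise. Its log2 signal was 7.29, 7.42, 7.08 and 7.52 in exudate samples and 7.67, 7.62, 7.11 and 7.32 in control samples, so that the groups overlapped. The probe was well above background on 3 of 4 exudate arrays, the exception being array 3, and on 4 of 4 control arrays. The log2 ratio was -0.39, -0.20, -0.03 and 0.20, with a mean of -0.10 ± 0.25 (SD, n = 4 arrays) and an adjusted p of 0.716 in limma. Its mean was -0.29 on the arrays with exudate in Cy3 and 0.09 on those with exudate in Cy5, a gap between dye orientations larger than its SD between arrays. The other genes differed between orientations too. In the same order the means were 1.98 and 1.67 for *PrCKX4*, 1.56 and 1.38 for *PrCKX2*, 0.90 and 1.14 for *PrRR5*, and 0.93 and 1.33 for *PrZFP6*. Each of these means rests on few arrays, so that such gaps show no dye effect by themselves.

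The response regulator *PrRR5*, annotated after Arabidopsis ARR5, had the smallest spread of the 4 genes called. Exudate samples had log2 signals of 8.36, 8.64, 8.33 and 8.87, against 7.38, 7.81, 7.56 and 7.36 in control samples, with no overlap. The log2 ratio was 0.97, 0.83, 0.77 and 1.51, with a mean of 1.02 ± 0.34 (SD, n = 4 arrays), a standard error of 0.19 and an adjusted p of 0.0116 in limma. The probe was well above background in all 8 samples. Its call was lost when array 1 was left out (log2 ratio 1.04, adjusted p = 0.0625).

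*PrZFP6* is named after a C2H2 zinc finger protein that in Arabidopsis takes part in trichome formation downstream of gibberellin and CK. Its log2 signal was 7.91, 8.73, 7.71 and 8.45 in exudate samples, against 7.19, 7.58, 7.00 and 6.50 in control samples. The lowest exudate sample (7.71) and the highest control sample (7.58) nearly met, and both groups were spread (8.20 ± 0.47 in exudate samples and 7.07 ± 0.45 in control samples, SD, n = 4 each). Within the arrays the log2 ratio was 0.72, 1.15, 0.71 and 1.95, with a mean of 1.13 ± 0.58 (SD, n = 4 arrays), a standard error of 0.23 and an adjusted p of 0.0153 in limma. The probe counted as well above background in all 8 samples, but on 1 of its 2 spots only in control samples 3 and 4. Its call was also lost without array 1 (log2 ratio 1.27, adjusted p = 0.0529).

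The *CRE1/AHK4* homolog, the candidate receptor, gave no usable signal. Neither its sense nor its antisense probe was well above background in any of the 8 samples. The log2 signal of the sense probe was 6.53, 6.52, 6.23 and 6.15 in exudate samples and 6.19, 6.20, 6.40 and 6.36 in control samples. Its raw intensity was between 1.04 and 1.95 times the local background in exudate samples and between 1.07 and 1.68 times in control samples. Each of these ranges pools both dyes, which differed in background. The array thus allows no ratio for the receptor homolog, and no absence of the transcript follows from it.

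**Figure D1:**
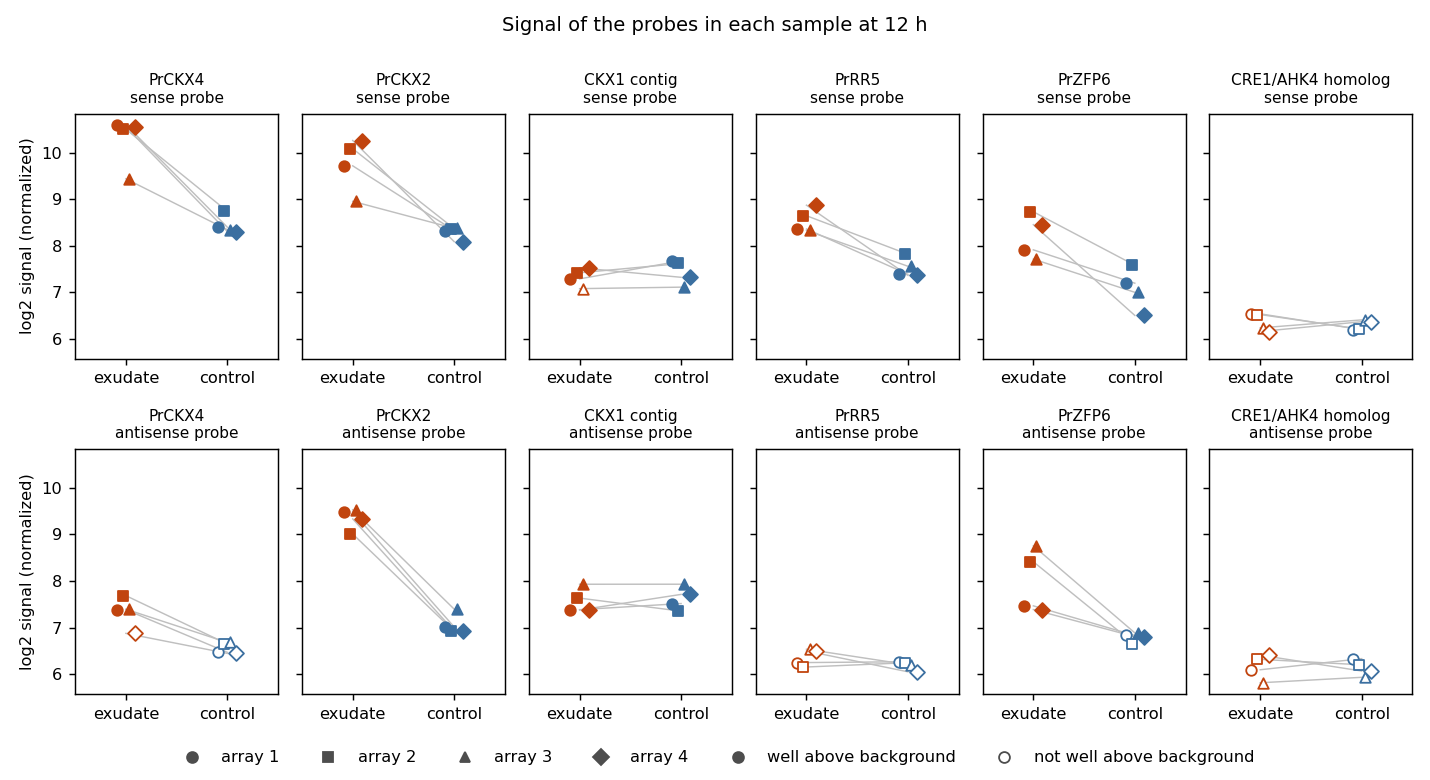
Normalized log2 signal (y axis) of the sense probe (top row) and the antisense probe (bottom row) of each contig in exudate samples (orange, left) and control samples (blue, right). Symbols give the array, grey lines join the samples of an array, and open symbols were not well above background. The sense probes of *PrCKX4*, *PrCKX2*, *PrRR5* and *PrZFP6* lie higher in every exudate sample than in any control sample, and both probes of the receptor homolog are open throughout.

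The brightness of these probes spanned much of the range of the array. By percentile among the sense probes of a channel, *PrCKX4* stood between 80.7 and 87.73 in exudate samples and between 63.39 and 68.41 in control samples. *PrCKX2* stood between 76.13 and 84.36 in exudate samples and between 60 and 64.71 in control samples, and *PrRR5* between 65.7 and 70.51 in exudate samples and between 46.04 and 54.46 in control samples. The *CKX1* contig stayed near the middle, between 44.54 and 50.47 in exudate samples and between 40.23 and 51.94 in control samples. *PrZFP6* stood between 58.96 and 69.03 in exudate samples and between 20.2 and 49.88 in control samples, the lowest control level of the 4 genes called. The receptor homolog lay between 6.168 and 25.67 in exudate samples and between 7.221 and 16.71 in control samples. Brightness also depends on the probe itself, so that these percentiles give no order of transcript abundance between genes.

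Each of these sense probes was spotted 2 times, which gives the error between spots within an array. Errors of labelling, dye and hybridization are shared by both spots and are not measured by it. The gap between the log2 ratios of both spots had a median over the 4 arrays of 0.17 for *PrCKX4*, 0.06 for *PrCKX2*, 0.22 for the *CKX1* contig, 0.10 for *PrRR5* and 0.31 for *PrZFP6*, against a median of 0.13 over all tested sense probes. The widest single gap was 0.52, for *PrZFP6*.

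The ratios of the 5 genes were compared with each other within each array. *PrCKX4* exceeded *PrCKX2* on 4 of 4 arrays, by 0.81, 0.05, 0.51 and 0.08 on the log2 scale, with a mean difference of 0.36 ± 0.37 (SD, n = 4). The ratios of both oxidases were close on arrays 2 and 4. *PrCKX4* exceeded the *CKX1* contig by 1.93 ± 0.60 and *PrCKX2* exceeded it by 1.57 ± 0.64 (SD, n = 4), each on 4 of 4 arrays. *PrCKX4* also exceeded *PrRR5* by 0.81 ± 0.38 and *PrZFP6* by 0.70 ± 0.54 on 4 of 4 arrays, whereas *PrCKX2* exceeded each of them on 3 of 4 arrays, with array 3 the exception. *PrRR5* and *PrZFP6* did not separate, with a difference of -0.11 ± 0.32 (SD, n = 4) and *PrRR5* higher on 2 of 4 arrays. Among 10 pairs the exact two-sided sign-flip permutation test gave p = 0.13 at the smallest, which is the smallest that 4 arrays can give, and an adjusted p of 0.179 for those pairs. This test could therefore not pass the threshold with 4 arrays.

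In the ratios as reported, the genes called higher shared a pattern over the arrays. *PrCKX4*, *PrCKX2*, *PrRR5* and *PrZFP6* each had their lowest ratio on array 3 and their highest on array 4. Of the 1526 sense probes called higher, 32.8% were lowest on array 3, 29.8% were highest on array 4 and 13.8% did both, and over all tested sense probes the shares were 36.7%, 39% and 19%. The median log2 ratio of all tested sense probes moved the same way, with -0.20, -0.09, -0.27 and -0.03 on arrays 1 to 4. Taken relative to that median, the mean log2 ratio was 1.97 ± 0.47 for *PrCKX4*, 1.61 ± 0.57 for *PrCKX2*, 1.17 ± 0.27 for *PrRR5*, 1.28 ± 0.49 for *PrZFP6* and 0.04 ± 0.23 for the *CKX1* contig (SD, n = 4). The spread was smaller for each of the 5 genes than without this step. Of the 4 genes called, *PrCKX2* alone kept its lowest value on array 3 and its highest on array 4. *PrRR5* was then lowest on array 2 (0.92, against 1.04 on array 3) and *PrZFP6* on array 1 (0.91, against 0.98 on array 3). *PrCKX4* was then highest on array 1 (2.40, against 2.28 on array 4). Without this step *PrZFP6* was nearly equal on arrays 1 and 3 (0.717 and 0.714). The part of the dim exudate channel of array 3 in these ratios was not tested beyond leaving that array out, which gave 2.07 for *PrCKX4* and 1.76 for *PrCKX2*, both still called. With 4 arrays no correlation between genes is given.

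**Figure D2:**
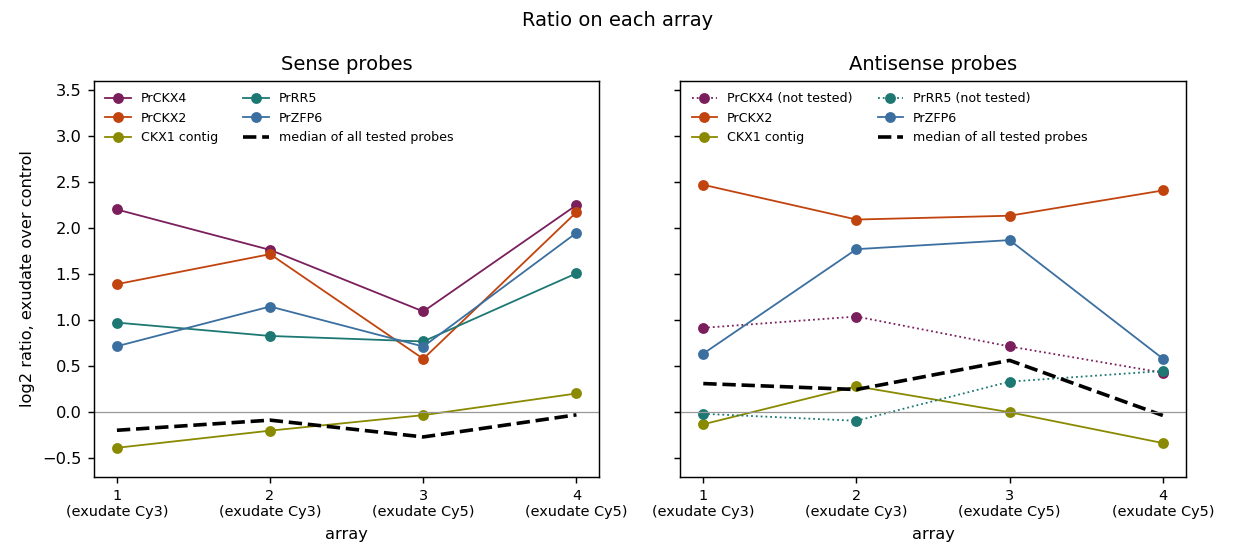
Log2 ratio of exudate over control (y axis) on each of the 4 arrays (x axis, with the dye of the exudate sample) for the sense probes (left) and the antisense probes (right). Lines only join the values of a probe, dotted lines mark probes not tested, and the dashed black line is the median of all tested probes of that strand. The sense probes of *PrCKX4*, *PrCKX2*, *PrRR5* and *PrZFP6* all have their lowest point on array 3 and their highest on array 4, while antisense *PrCKX2* stays between 2.09 and 2.47.

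Likeness of pattern was measured as the root mean square difference of the 4 log2 ratios, over the 33911 other tested sense probes. By this measure *PrCKX2* was the 53rd nearest probe to *PrCKX4*, inside the nearest 0.156%, and *PrCKX4* the 58th nearest to *PrCKX2*. *PrZFP6* was the 43rd nearest to *PrCKX2*, and *PrRR5* the 27th nearest to *PrZFP6*. Seen from the genes of smaller ratio *PrCKX4* was farther, the 2144th nearest to *PrZFP6* (6.32%) and the 5970th nearest to *PrRR5* (17.6%). The *CKX1* contig was the 16074th nearest to *PrCKX4*, near the middle of all probes, whereas *PrCKX4* was the 33746th nearest to the *CKX1* contig, among the farthest. The nearest probes were Pram_47739 for *PrCKX4* (0.09), Pram_43289 for *PrCKX2* (0.18), Pram_52449 for *PrRR5* (0.10), Pram_24394 for *PrZFP6* (0.07) and Pram_17154 for the *CKX1* contig (0.02), none of them named in the sources used here. Among the 79 contigs that the study related to hormones, Pram_40479, annotated as a member of a family related to receptor-like protein kinases, was nearest to *PrCKX4*, *PrCKX2* and *PrZFP6*, with log2 ratios of 1.45, 1.5, 1.05 and 1.75. From the same contigs *AIR12* (Pram_04752), in Arabidopsis an auxin-responsive gene, was nearest to *PrRR5*, and *PIP3* (Pram_49435), an aquaporin gene, to the *CKX1* contig. Probes of like ratio size are near each other by construction, so that these ranks describe size as well as pattern.

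The antisense probes gave a second readout of each contig. With loess fitted over both strands together, as reported, antisense *PrCKX2* had the largest mean ratio of these genes' probes on either strand. Its log2 signal was 9.48, 9.01, 9.53 and 9.33 in exudate samples, against 7.01, 6.92, 7.39 and 6.92 in control samples, and the probe was well above background in all 8 samples. The groups lay far apart, and the mean log2 ratio was 2.28 with exudate in Cy3 and 2.27 with exudate in Cy5. The log2 ratio was 2.47, 2.09, 2.14 and 2.41, with a mean of 2.28 ± 0.19 (SD, n = 4 arrays), a 4.85-fold difference, and an adjusted p of 0.0010 in limma over the 17342 antisense probes tested. It ranked 52nd among them, where 6.47% were called higher and 0.115% lower, and where 31% had ratios above 1 on all 4 arrays and 15.4% had no overlap between groups with exudate above control. The value rested on 1 spot per array. With loess fitted for each strand on its own it was 1.94, against 1.95 for the sense probe of *PrCKX4*, so that the first place depended on this step.

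Antisense *PrCKX2* exceeded its sense partner on 4 of 4 arrays, by 1.08, 0.38, 1.56 and 0.24 on the log2 scale, with a mean of 0.81 ± 0.62 (SD, n = 4; exact two-sided sign-flip permutation p = 0.13, the smallest possible). Of 15464 contigs with both strands tested, 27.2% had the antisense ratio higher on all 4 arrays and the median difference was 0.38, so that such an excess was common on these arrays. Over the tested antisense probes, arrays 1 to 4 had median log2 ratios of 0.31, 0.25, 0.56 and -0.04. The excess of *PrCKX2* was largest on array 3, where that median was highest. With loess fitted for each strand on its own, the mean log2 ratios of *PrCKX2* were closer, 1.94 for the antisense and 1.60 for the sense probe. Whether transcripts of the opposite strand or labelling of both strands gave the antisense signals was not tested.

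The antisense probe of *PrCKX4* was well above background on 3 of 4 exudate arrays and on 0 of 4 control arrays, and was not tested. The log2 signal of this probe was 7.38, 7.69, 7.39 and 6.87 in exudate samples, against 6.47, 6.65, 6.68 and 6.44 in control samples. The exudate mean was 1.71-fold higher. Each control array entered with this probe's signal or, if higher, with the dimmest signal that still counted as well above background. That dimmest signal was higher on none of them, so that the value is the plain ratio and not a lower bound. It rested on 1 spot per array and included exudate array 4, where the probe was not well above background.

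Antisense *PrZFP6*, also with 1 spot per array, was well above background on 4 of 4 exudate arrays and on 2 of 4 control arrays. Its log2 signal was 7.47, 8.41, 8.76 and 7.39 in exudate samples, against 6.83, 6.64, 6.89 and 6.80 in control samples, with no overlap. The log2 ratio was 0.64, 1.77, 1.87 and 0.58, with a mean of 1.22 ± 0.70 (SD, n = 4 arrays) and an adjusted p of 0.0368 in limma, a call that was lost under 10 of 17 alternatives. It entered the test only through the exudate group, where it was high, and was not tested where both groups had to be well above background. The high arrays were 2 and 3, whereas those of the sense probe were 2 and 4. The antisense probe of the *CKX1* contig was well above background in all 8 samples and was not called, with a log2 ratio of -0.05 ± 0.26 (SD, n = 4 arrays) and an adjusted p of 0.909. Antisense *PrRR5* was not well above background in any sample and has no fold.

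The study's list of hormone-related contigs holds 13 other contigs under CK, chosen by the study on its own arrays, so that their counts are a description. Of the 12 tested, 1 was called higher and 5 lower, and 6 were not called. Without array 1, and likewise with median centring in place of loess, 0 were called higher and 0 lower, so that none of these calls held when that array was left out. Calls were then few over all tested sense probes too. Without array 1, 0.967% were called higher and 0.377% lower, and with median centring 15 and 2 of 33912 were. As reported, the median log2 ratio of the 12 contigs was -0.09, against -0.13 over all tested sense probes, of which 4.5% were called higher and 11.2% lower.

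*PMSR4* (Pram_41405), a methionine sulfoxide reductase that repairs oxidized proteins, was the contig called higher. Its log2 signal lay between 8.26 and 9.32 in exudate samples and between 7.72 and 8.14 in control samples. Its log2 ratio was 0.93, 1.15, 1.60 and 0.13, which averaged 0.95 ± 0.62 (SD over 4 arrays, adjusted p = 0.0272 in limma). It was highest on array 3 and lowest on array 4, opposite to the 4 CK marker genes in the ratios as reported. The order of those genes was also that of 19% of all tested sense probes. Relative to the array median, *PrCKX2* alone of the 4 kept it.

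Within this list the largest falls were in both contigs of *PAP85*, a vicilin-like seed storage protein. *PAP85* Pram_01577 had log2 ratios of -1.94, -0.51, -1.50 and -1.79, with a mean of -1.43 ± 0.64, and *PAP85* Pram_31475 of -1.28, -0.61, -1.22 and -1.56, averaging -1.17 ± 0.40 (SD over 4 arrays, adjusted p = 0.00856 in limma for each). Pram_01577 entered the test only through the control group, where it was high, since it was well above background on 3 of 4 exudate arrays. Where both groups had to be well above background, 4 contigs of the list and 12.4% of the tested sense probes were called lower. The putative lysine decarboxylase Pram_35727 carries the annotation of the LOG family, whose Arabidopsis members release active CK from its nucleotides. Its log2 signal lay between 11.41 and 11.93 in exudate samples and between 11.97 and 12.48 in control samples, with no overlap, as for 14.7% of the tested sense probes with exudate below control. Its log2 ratio was -0.86, -0.53, -0.55 and -0.50, averaging -0.61 ± 0.17 (SD over 4 arrays, adjusted p = 0.0376 in limma).

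The remaining falls were in *PMDH2* (Pram_10897), a peroxisomal malate dehydrogenase, and *APX3* (Pram_46674), an ascorbate peroxidase. Their log2 ratios averaged -0.83 ± 0.24 (adjusted p = 0.0174) and -0.84 ± 0.61 (adjusted p = 0.0381; SD, n = 4 arrays, limma). The signals of both groups overlapped for each of them, although the ratio was below 1 on 4 of 4 arrays. The contigs not called were annotated as *ABCB4*, *CLPC* (2 contigs), an HXXXD-type acyl-transferase (2 contigs) and *PDIL1-1*, with mean log2 ratios between -0.32 and 0.47. A further *CLPC* contig (Pram_02883) was well above background on 2 of 4 arrays in each group and was not tested.

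**Figure D3:**
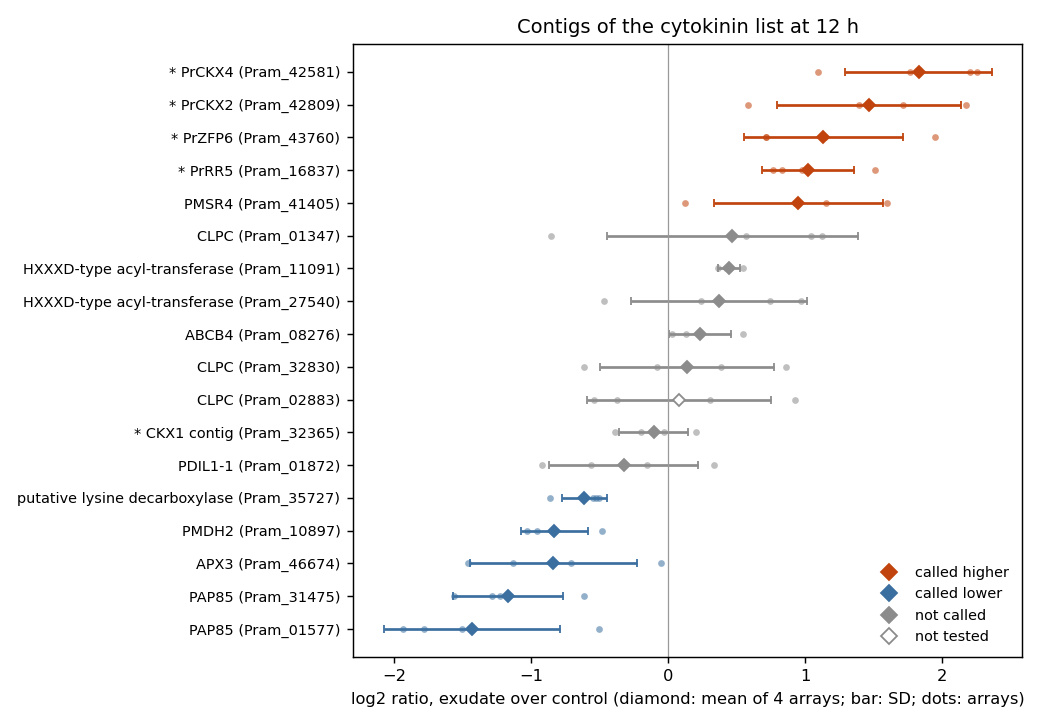
Log2 ratio of exudate over control (x axis) for the 18 contigs of the CK list, with the mean (diamond), the SD (bar) and the value on each of the 4 arrays (dots). Asterisks mark the oxidases, *PrRR5* and *PrZFP6*; orange is called higher, blue called lower, grey not called and open not tested. *PrCKX4*, *PrCKX2*, *PrZFP6* and *PrRR5* have the highest means of the list, and the *PAP85* contigs the lowest.

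The 4 calls changed with some ways of processing. With median centring in place of loess on the background-corrected intensities, the log2 ratios were 1.44 for *PrCKX4*, 1.10 for *PrCKX2*, 0.78 for *PrRR5* and 1.03 for *PrZFP6*, and none was called (adjusted p between 0.0766 and 0.0917 in limma), where 15 of 33912 sense probes were called higher in all. On the processed signal of the scanner software, also median centred, all 4 were called, with log2 ratios of 2.02, 1.65, 1.33 and 1.93 for the same genes (adjusted p between 0.00443 and 0.0173 in limma). In that setting 2.83% of the tested sense probes were called higher. In the table of log2 values deposited by the authors the mean differences were 1.74, 1.35, 0.84 and 0.99 for the same genes. There, *PrCKX4* had 9.04, 10.63, 10.82 and 10.96 in exudate samples, against 8.63, 9.20, 8.10 and 8.59 in control samples, so that the groups overlapped. No gene of the 4 was called on those values when columns were paired by number (adjusted p between 0.319 and 0.365 in limma), and all 4 were when each exudate column was paired with the array whose exudate channel it followed. Of the tested sense probes, 0% and 4.13% were called higher under these pairings.

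**Figure D4:**
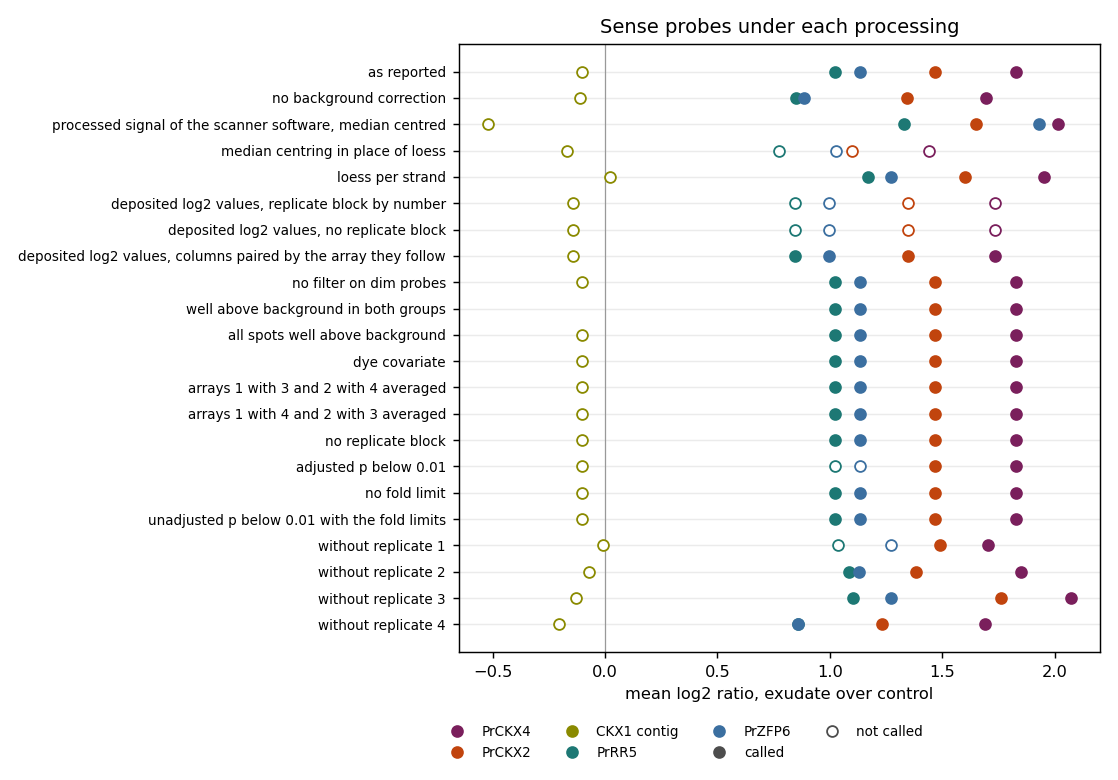
Mean log2 ratio of exudate over control (x axis) of the 5 sense probes under each way of processing the arrays (rows), with filled symbols where the probe was called and open symbols where it was not. *PrCKX4* and *PrCKX2* are filled in all rows except median centring and the deposited values without the column pairing by array, and the *CKX1* contig stays between -0.52 and 0.02.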

How the data were processed

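As deposited by the authors, scanner files (Agilent Feature Extraction 11.5.1.1) give the median intensity, local background, processed intensity and flags of each spot and channel of the 2-colour arrays on a linear scale. They also deposited log2 values of the sense probes, whose normalization is not given in the sources used here; the submitters' notes name limma. The table had 0 unused columns. Each sample was read from the channel of its dye.

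In limma 3.58.1 under R 4.3.3, median intensities were corrected by normexp (offset 50), which draws dim ratios toward 0, and normalized by loess (span 0.3, 4 iterations, control spots without weight). Control spots and outlier flags were removed and spots of a probe averaged, from 180880 spots per array. Probes well above background (at least 50% of spots) in 1 or both groups on every array entered the test, 33912 sense and 17342 antisense, by lmFit and eBayes on log2 ratios and Benjamini-Hochberg adjustment per strand. Fold limits follow the study's text (a legend there puts them on the log2 scale), and the p limit of 0.05 was set here. Single-channel signals followed loess and Aquantile.

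Exudate and control are paired by the shared array. Deviations from group means correlated with r of 0.216, 0.249, 0.746 and -0.232 within arrays 1 to 4, and the best other exudate channel gave 0.298, 0.648, -0.324 and 0.189, and these mixed values were not used to decide the pairing. With 1 slide, no slide or scan block could be fitted. The number of arrays limits the precision. The genes and lists were chosen with earlier results of these data known. Named genes were the 6 contigs, their antisense partners, CK list contigs called, and for 5 contigs the nearest tested probe and the nearest hormone-related contig. CK list contigs not called are named outside this rule, and storage protein contigs as tissue markers. The steps were tested on simulated data, and 21 alternatives were run.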

Additional observations from a re-analysis of the deposited data

Results flagged for a closer look

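Among 50 groups of 4 values examined, 4 held a value far from the others, where chance gives about 5%. The exudate log2 signal of *PrCKX4* was 9.44 in replicate 3, against between 10.5 and 10.6 in the other exudate samples, and that channel was the dimmest of the 4 exudate channels. The difference of *PrCKX2* minus the *CKX1* contig was 0.61 on array 3, against between 1.78 and 1.97 on the others. The control log2 signal of *PrCKX2* was 8.08 in replicate 4, against between 8.32 and 8.37 in the other control samples. The log2 ratio of the putative lysine decarboxylase Pram_35727 was -0.86 on array 1, against between -0.55 and -0.50 on the others.

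The antisense probes lay outside the main measurement, and for 3 contigs every exudate signal was above every control signal. Of all tested antisense probes, 15.4% had this, and 31% had ratios above 1 on all 4 arrays. The mean log2 ratio was 2.28 for antisense *PrCKX2* and 1.22 for antisense *PrZFP6*. Antisense *PrCKX4*, which was not tested, was 1.71-fold higher in exudate samples. Each of these values rested on 1 spot per array.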

How the results depend on the processing

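As reported, 4 of the 5 genes were called higher, and 1 contig of the CK list was called higher and 5 lower. With median centring, *PrCKX4* (1.44), *PrCKX2* (1.10), *PrRR5* (0.78) and *PrZFP6* (1.03) lost their calls, and 0 of the 5 genes remained called. The CK list had 0 called higher and 0 lower there, where 15 of 33912 sense probes were called higher and 2 lower. An unadjusted p under 0.05 in limma was found for 4 of the 5 genes, 5 of the list and 10650 of the 33912 sense probes. On the deposited log2 values (1.74, 1.35, 0.84 and 0.99 for the same genes) the counts were again 0, 0 and 0, both with a replicate block by column number and without one, where 0 and 1 of 33912 sense probes were called and 4296 and 5017 had an unadjusted p under 0.05; 4 of the 5 genes did in each fit, and 3 and 4 of the list. The exudate columns 1 to 4 followed arrays 3, 4, 1 and 2, and with columns paired that way, an alternative chosen after seeing the data, 4 genes were called. There 4.13% of the tested sense probes were called higher and 10.5% lower. Without the replicate block of the shared array all 4 calls held and 1 contig of the list was called lower (808 sense probes higher and 1595 lower, against 1526 and 3794 with it). At an adjusted p below 0.01, *PrRR5* (1.02) and *PrZFP6* (1.13) lost their calls, so that 2 genes were called, with 0 of the list higher and 2 lower. At that limit 1.1% of the tested sense probes were called higher and 0.666% lower. The list had 0 called higher with no background correction, with no filter on dim probes or with a dye covariate, and 2 with loess per strand. In the same order, 2.68%, 1.57%, 2.7% and 6.75% of all tested sense probes were called higher. The list had 2 called lower with the processed signal and 3 with a dye covariate, where 11.2% and 4.34% of the tested sense probes were called lower.

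Leaving out 1 array at a time gave 2 to 4 genes called, 0 to 2 of the list higher and 0 to 4 lower. In these fits between 0.967% and 3.8% of the tested sense probes were called higher and between 0.377% and 11.9% lower. The log2 ratio ranged from 1.69 to 2.07 for *PrCKX4*, from 1.23 to 1.76 for *PrCKX2*, from 0.86 to 1.10 for *PrRR5*, from 0.86 to 1.27 for *PrZFP6* and from -0.21 to -0.01 for the *CKX1* contig. *PrCKX4* and *PrCKX2* were called in each of these fits (adjusted p up to 0.0167 and 0.0487), and *PrRR5* and *PrZFP6* in all except the fit without array 1, where 328 sense probes were called higher and 128 lower over all. Antisense *PrCKX2* was called under all 18 alternatives run for it, with log2 ratios between 1.91 and 3.19, and antisense *PrZFP6* lost its call under 10 of 17. Loess per strand called 2289 sense probes higher and 2404 lower, and the other alternatives called between 0 and 1693 higher and between 0 and 4263 lower.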
